A study of Mus musculus with 4 samples.

Results

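Genes of adult neurogenesis and cell proliferation were examined in the hippocampus of socially defeated mice (repeated social defeat stress, R-SDS). The list held 34 genes in 4 classes, namely 7 stem cell genes, 12 cycling cell genes, 2 intermediate progenitor genes and 13 immature neuron genes. A gene was represented by the array row that carried its symbol alone and had the highest mean over the 4 arrays. By this rule 33 of the 34 genes were measured among 19938 genes in all. Ccnb1, the mitotic cyclin B1, had no row with a single symbol in the annotation used and is not analysed here. R-SDS mice (2 arrays, numbered 1 and 2 by the labels) were males of the C57BL/6JJmsSlc strain that met an ICR male for 10 min a day over 10 days and stayed behind a divider in its cage for the rest of each day. Control mice (2 arrays, also numbered 1 and 2) were males of the same strain housed in pairs across a divider, without defeat. All mice were 11-12 weeks old, and whole dissected hippocampus was hybridised to mouse gene arrays. The labels do not say what the numbers mark, and it is the study, not the labels, that calls the stressed mice susceptible, meaning that they avoided a strange ICR mouse. The 4 arrays correlated at 0.988 to 0.996 over all genes. Of the markers of hippocampal neurons, 8 of 10 granule neuron genes and 10 of 12 CA1 and CA3 genes had means above the median of all genes, Prox1 and Wfs1 among them.

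In the adult hippocampus, new granule neurons arise in the subgranular zone of the dentate gyrus. Radial stem cells that carry Sox2, nestin and Notch target genes divide rarely and give rise to Eomes-positive intermediate progenitors, which divide more often. Their daughters leave the cell cycle, pass through a stage with doublecortin and calretinin, and then become mature granule neurons. These cells are few within the whole tissue, and in such bulk samples fewer cells of a type and less RNA per cell cannot be told apart.

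None of the 33 genes passed the adjusted threshold between R-SDS and Control. With limma and Benjamini-Hochberg adjustment over all rows with 1 symbol, 0 members were called in either direction, against a background of 0% of all genes higher and 0% lower, and each member had an adjusted p of 1. The smallest adjusted p of any gene was 0.264. At an unadjusted p under 0.05, limma called 1 member, Aurkb, where 0.983% of all genes were called, and the methods' t-test called 3 members (Aurkb, Mcm2 and Mcm5) before adjustment, where it called 2.03% of all genes. The study's thresholds, a log2 difference beyond 0.5 with an unadjusted p under 0.05, took 0 members, against 0.135% of all genes higher and 0.196% lower in R-SDS. With 2 arrays a group, the standard errors of the members' log2 differences ran between 0.13 and 0.25. A small difference was therefore not detectable here, and a moderate one mostly not. On simulated data the same fit called 12% of log2 changes of 0.5.

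The group mean was higher in R-SDS for 27 of the 33 members (81.8%) and for 53.5% of all genes. Both R-SDS arrays lay above both Control arrays for 8 members (24.2%), where 9.52% of all genes did so. These were Aurkb, Mcm2, Cdk1, Bub1, Mcm5, Neurod1, Draxin and Nnat. Both R-SDS arrays lay below both Control arrays for 1 member (3.03%), Calb2, against 8.81% of all genes. When the 4 arrays were brought to identical distributions (quantile normalization) or to a common median, Aurkb, Mcm2 and Draxin still had no overlap on the higher side and Calb2 on the lower side, and the other genes without overlap differed between scalings. The median log2 difference was 0.06 over the 33 members and 0.0089 over all genes.

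**Figure D1:**
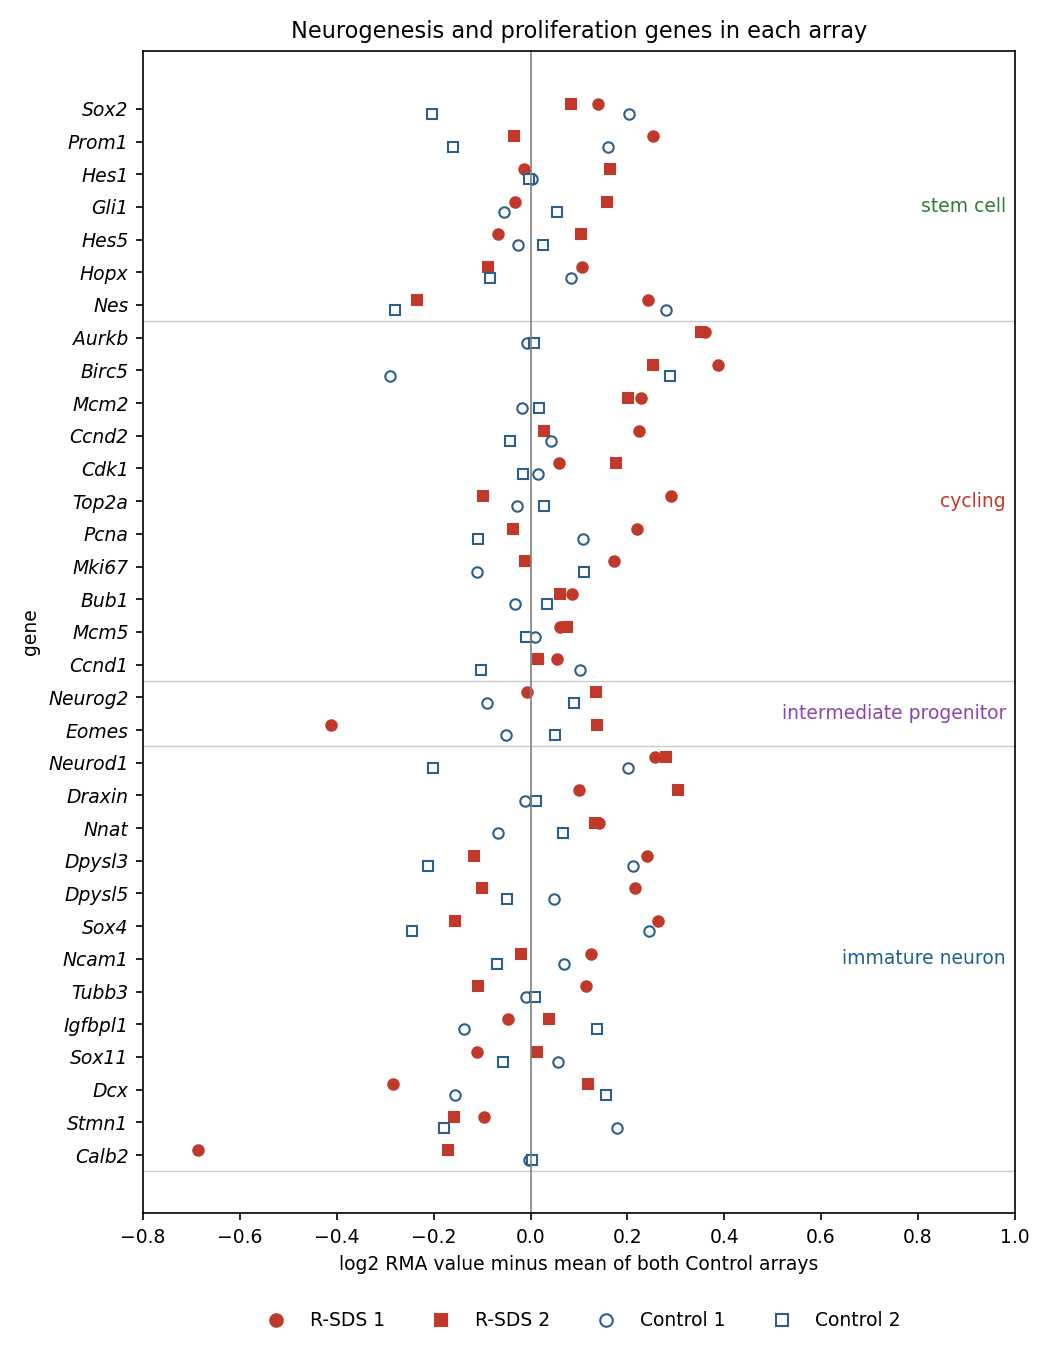
Log2 value of each of the 33 measured genes in the 4 arrays, minus the mean of both Control arrays (x axis), with genes by class down the y axis; red filled symbols are R-SDS arrays, open blue symbols Control arrays, circles number 1 and squares number 2. Aurkb and Mcm2 show both R-SDS arrays clear of both Control arrays with little spread, Calb2 lies below, and most stem cell genes overlap.

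In each of the 11 measured cycling cell genes the R-SDS mean was higher, with log2 differences between 0.04 and 0.36 and a median of 0.10. In 5 of the 11 (45.5%) the groups did not overlap, against the 9.52% of all genes above. Under quantile normalization this held for 3 of the 11, and under median scaling for 3. Only Aurkb and Mcm2 of this class were without overlap in all scalings. For this class the typical difference between group means (median of absolute values) was 0.10. That between single arrays of 1 group was 0.076, a measure unlike the difference of group means. Over all genes the values were 0.07 and 0.18. The values 0.10 and 0.076 of these cycling genes were not compared by a test. Of these genes 3 (Ccnd2, Ccnd1 and Pcna) had means above the median of all genes, and 3 others (Cdk1, Top2a and Bub1) had means below the lower quartile of all genes, which lay between 4.85 and 5.06 on the 4 arrays. No detection call came with the values.

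Aurkb encodes aurora kinase B, which corrects chromosome attachment to the spindle in mitosis. Its log2 value was 5.94 and 5.93 in the R-SDS arrays and 5.57 and 5.58 in the Control arrays. Both R-SDS arrays were therefore high and nearly equal, and the groups did not overlap. The log2 difference was 0.36 ± 0.13 (SE, n = 2 each; 95% interval 0.05 to 0.67), a fold of 1.28, with an adjusted p of 1 by limma, and it was 0.37 within number 1 and 0.35 within number 2. Birc5 encodes survivin, a partner of aurora kinase B in the chromosomal passenger complex. Its log2 value was 5.22 and 5.08 in the R-SDS arrays, against 4.54 and 5.12 in the Control arrays. Control 1 was low, Control 2 lay between the R-SDS arrays, and the log2 difference of 0.32 ± 0.21 (SE, n = 2 each) became 0.03 without Control 1 and 0.61 without Control 2.

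Mcm2 and Mcm5 encode subunits of the helicase that opens DNA at replication origins. Mcm2 had log2 values of 6.19 and 6.17 in the R-SDS arrays and 5.95 and 5.98 in the Control arrays. The groups were well apart with close values within each, and the log2 difference was 0.21 ± 0.13 (SE, n = 2 each; 95% interval -0.10 to 0.52), a fold of 1.16. Mcm5 had log2 values of 5.89 and 5.91 in the R-SDS arrays and 5.84 and 5.82 in the Control arrays, without overlap and with a log2 difference of 0.07. Pcna, the sliding clamp of DNA polymerase, had overlapping groups and a log2 difference of 0.09. A second row for Pcna gave 0.08. RefSeq lists pseudogenes of Pcna, and its signal may be shared with them.

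Among the mitotic genes, Cdk1 is the kinase that drives entry into mitosis. Its log2 value was 4.82 and 4.94 in the R-SDS arrays and 4.78 and 4.74 in the Control arrays, with R-SDS 2 the highest and no overlap. Bub1, a kinase of the spindle checkpoint, had log2 values of 3.45 and 3.43 in the R-SDS arrays and 3.33 and 3.40 in the Control arrays. These also did not overlap, but the R-SDS 2 and Control 2 arrays were close. Mki67, whose product Ki-67 coats mitotic chromosomes and is the usual proliferation marker, had log2 values of 5.29 and 5.10 in the R-SDS arrays and 5.004 and 5.22 in the Control arrays. Top2a, which untangles replicated DNA, had log2 values of 5.06 and 4.67 in the R-SDS arrays and 4.74 and 4.80 in the Control arrays. For both Mki67 and Top2a the R-SDS 1 array was the highest and the R-SDS 2 array lay below Control 2, and a second, dim row of Top2a had a log2 difference of 0.0068. The D-type cyclins Ccnd1 and Ccnd2, which couple growth signals to cell cycle entry, had log2 differences of 0.04 and 0.13 with overlapping groups.

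**Figure D2:**
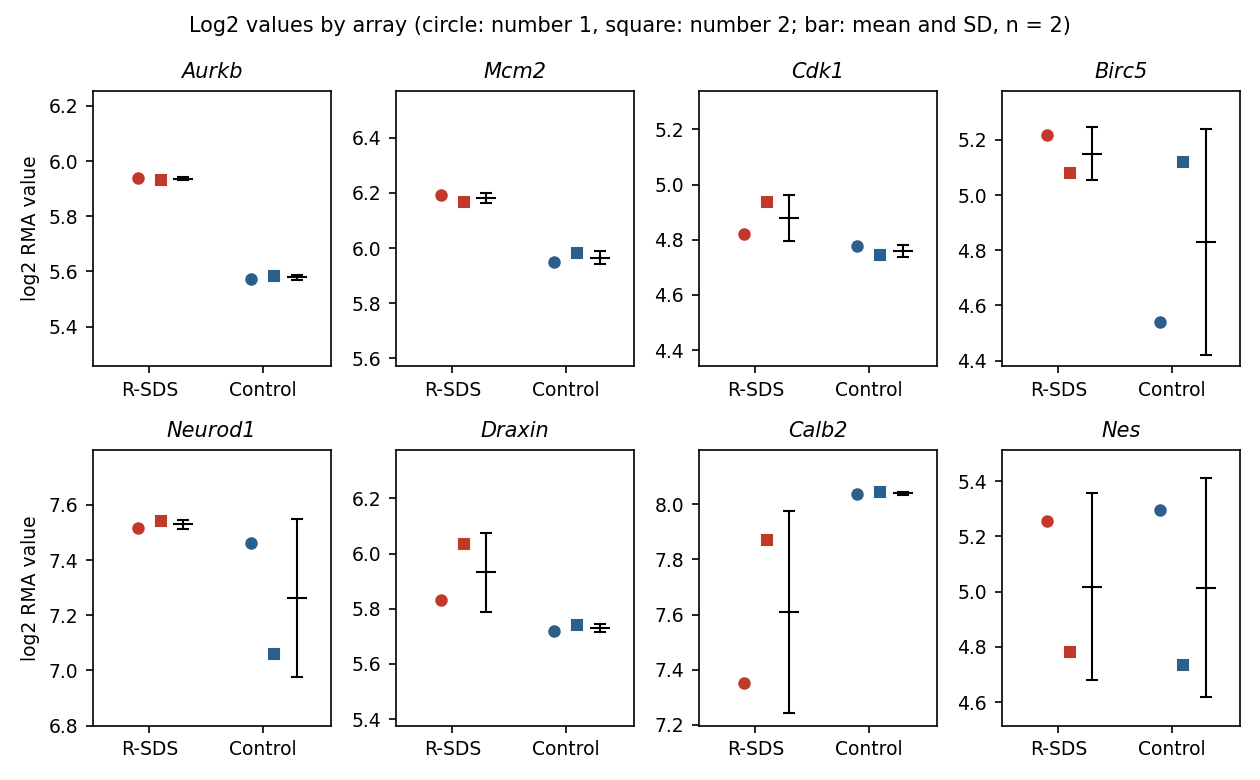
Log2 RMA values of 8 genes, R-SDS left and Control right in each panel, with each y axis spanning the same 1.0 log2 units; circles are number 1, squares number 2, and bars the mean and SD of 2 arrays. Aurkb, Mcm2 and Draxin have R-SDS arrays above and apart from Control, Birc5 and Neurod1 depend on a single low Control array, Calb2 is lowest in R-SDS 1, and Nes follows the replicate number.

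Promoter sequence is shown for the cycling genes without overlap that the RefSeq promoter table holds, because genes of replication and mitosis are known to share promoter elements. Aurkb was not among the promoters matched, and 24 of the 34 members were. The 250 bases before the gene start were searched on both strands for CCAAT (the CCAAT box), TTTGAA (the cell cycle homology region) and TTTNNCGC (an E2F site), and capitals mark each match. The sequences are from GRCm38.p6, at chr10:69352913-69353162 (minus strand) for Cdk1, chr6:88898781-88899030 (minus strand) for Mcm2, chr8:75109259-75109508 (plus strand) for Mcm5 and chr2:127831860-127832109 (minus strand) for Bub1, each read 5′ to 3′ towards the gene.
Cdk1: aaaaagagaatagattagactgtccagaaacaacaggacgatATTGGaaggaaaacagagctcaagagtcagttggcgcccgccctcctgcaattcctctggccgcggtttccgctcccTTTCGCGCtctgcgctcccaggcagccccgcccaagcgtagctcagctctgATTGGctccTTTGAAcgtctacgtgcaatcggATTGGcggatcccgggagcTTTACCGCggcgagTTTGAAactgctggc
Mcm2: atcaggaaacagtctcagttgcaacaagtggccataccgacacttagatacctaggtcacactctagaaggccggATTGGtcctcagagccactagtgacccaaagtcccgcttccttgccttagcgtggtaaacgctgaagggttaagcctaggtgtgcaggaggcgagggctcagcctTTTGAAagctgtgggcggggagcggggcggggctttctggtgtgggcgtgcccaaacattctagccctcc
Mcm5: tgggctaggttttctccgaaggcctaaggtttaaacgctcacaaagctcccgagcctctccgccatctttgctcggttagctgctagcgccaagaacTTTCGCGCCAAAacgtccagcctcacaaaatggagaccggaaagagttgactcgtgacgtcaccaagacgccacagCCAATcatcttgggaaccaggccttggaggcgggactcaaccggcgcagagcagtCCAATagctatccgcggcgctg
Bub1: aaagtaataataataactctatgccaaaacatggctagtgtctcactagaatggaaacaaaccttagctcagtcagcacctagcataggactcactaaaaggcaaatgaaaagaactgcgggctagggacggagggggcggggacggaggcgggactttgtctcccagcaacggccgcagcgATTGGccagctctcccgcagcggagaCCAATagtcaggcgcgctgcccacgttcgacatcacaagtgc

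All 4 promoters held a CCAAT box, which 33.8% of the 32851 promoters in the table held. The cell cycle homology region was found in Cdk1 and Mcm2 (16% of all promoters), and an E2F match in Cdk1 and Mcm5 (4.28% of all promoters), where the 2 matches of Mcm5 overlap each other. Of the 9 cycling members with a promoter, Ccnb1 included, 8 held a CCAAT box, 4 the homology region and 2 the E2F letters. A match describes these letters only.

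A wider list of 46 other cell cycle genes did not share the direction. Of these, 24 had a higher and 22 a lower mean in R-SDS, and the median log2 difference was 0.0088, near the 0.0089 of all genes. The groups did not overlap on the higher side for 6 (13%) and on the lower side for 5 (10.9%), against 9.52% and 8.81% of all genes. With the 11 members added, 35 of 57 cell cycle genes had a higher mean in R-SDS (61.4%). The wider list was also dimmer, with 15 of the 46 below the lower quartile of all genes and 5 above the median. Among the 11 members these numbers were 3 and 3. At a mean log2 of at least 6, 11 of the wider list were left, 7 of them higher, with a median of 0.04. Of the members 4 were left, all 4 higher, with a median of 0.11. The part of brightness in this contrast was not tested. By limma 0 of the 46 were called after adjustment. The split depended on the R-SDS arrays, with 17 of 46 higher without R-SDS 1 and 30 of 46 without R-SDS 2.

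Rrm2, a subunit of ribonucleotide reductase, which makes the building blocks of DNA, had log2 values of 5.58 and 5.12 in the R-SDS arrays and 4.98 and 5.02 in the Control arrays. R-SDS 1 stood highest, and the log2 difference was 0.35. Nusap1, a spindle protein, had a log2 difference of 0.22 without overlap. Cdc20, an activator of the ubiquitin ligase that ends mitosis, went the other way with log2 values of 5.09 and 5.07 in the R-SDS arrays and 5.34 and 5.39 in the Control arrays. Its arrays were close within each group, the groups did not overlap, and the log2 difference was -0.29. The cyclins Ccna2 and Ccnb2, of which Ccnb2 was picked after its values were seen, had log2 differences of -0.22 and -0.18, both without overlap. Genes of mitosis thus lay on both sides.

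The promoters of Cdc20 and Ccnb2 are shown for contrast, since these genes were lower in both R-SDS arrays, at chr4:118437344-118437593 (minus strand) and chr9:70421555-70421804 (minus strand) of GRCm38.p6, with the same letters in capitals.
Cdc20: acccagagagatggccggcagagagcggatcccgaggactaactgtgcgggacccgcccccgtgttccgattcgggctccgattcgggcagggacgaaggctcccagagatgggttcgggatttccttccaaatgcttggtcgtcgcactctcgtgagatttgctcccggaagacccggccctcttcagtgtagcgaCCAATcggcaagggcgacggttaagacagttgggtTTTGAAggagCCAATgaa
Ccnb2: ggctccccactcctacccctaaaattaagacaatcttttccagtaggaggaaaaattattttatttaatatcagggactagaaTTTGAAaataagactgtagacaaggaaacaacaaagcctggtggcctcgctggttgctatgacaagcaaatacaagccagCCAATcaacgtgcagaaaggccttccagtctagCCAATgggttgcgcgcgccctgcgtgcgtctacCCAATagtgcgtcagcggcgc

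Both held CCAAT boxes and a cell cycle homology region, as Cdk1 and Mcm2 did. Of the 3 lower genes of the wider list without overlap that had a promoter, Cenpe held a CCAAT box but no homology region. Of the 6 higher genes of that list without overlap, 3 held a CCAAT box and 1 the homology region. Some genes on either side thus held these elements and others did not. Among the 45 promoters of the wider list, 66.7% held a CCAAT box, 15.6% the homology region and 17.8% the E2F letters. The shares of all promoters were 33.8%, 16% and 4.28%.

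**Figure D3:**
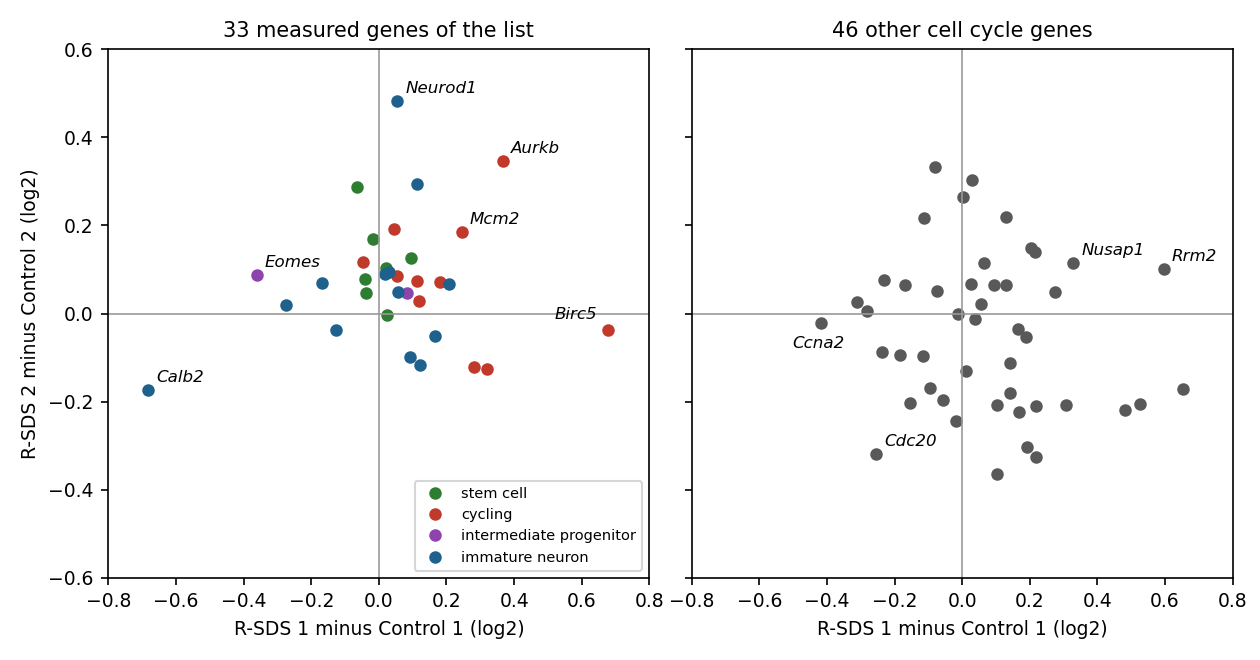
R-SDS minus Control log2 difference within number 1 (x axis) against that within number 2 (y axis), 1 point per gene, for the 33 measured members by class (left) and for 46 other cell cycle genes (right). Of the cycling members 7 of 11 lie in the upper right quadrant, while 13 of the 46 other cell cycle genes lie there and 10 in the lower left.

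Within the replicate numbers, 7 of the 11 cycling members were higher in R-SDS in both (63.6%), where 27.8% of all genes were. In number 1, 10 of the 11 were higher with a median log2 difference of 0.18, and in number 2, 8 of the 11 with 0.07. Without the R-SDS 1 array the class median was 0.06 with 8 of 11 higher, and without the R-SDS 2 array it was 0.22 with 11 of 11 higher. The wider list had medians of 0.06 in number 1 and -0.03 in number 2. Inhibitors of the cell cycle, the genes that hold cells out of division, were measured for 15 of 17 listed genes. Of these, 12 had a higher mean in R-SDS (80%, against 53.5% of all genes), with a median log2 difference of 0.08, and 3 had no overlap (20%, against 9.52%), led by Gadd45b (0.23) and Cdkn2d (0.18). Without R-SDS 1 the median was 0.0083 with 9 of 15 higher, and without Control 2 it was 0.02 with 8 of 15 higher.

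The stem cell members all overlapped between groups. For all 7 the R-SDS mean was higher, as it was for 53.5% of all genes, and the median log2 difference was 0.06. On either side 0 were without overlap, where 9.52% of all genes lay higher and 8.81% lower. The typical difference between single arrays of 1 group was 0.18 for this class, a measure unlike the difference of group means. For 5 of the 7 genes number 1 differed from number 2 in the same direction in both groups and by more than the group difference, as it did for 48.4% of all genes. Only 3 of the 7 were higher within number 1 (median -0.02), against 6 of the 7 within number 2 (median 0.10).

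Nes encodes nestin, the intermediate filament of radial stem cells. Its log2 value was 5.26 and 4.78 in the R-SDS arrays and 5.29 and 4.73 in the Control arrays. Both number 1 arrays were high and both number 2 arrays low, and the log2 difference between groups was 0.0042 (95% interval -0.60 to 0.60). Sox2, a transcription factor that maintains neural stem cells, had log2 values of 8.66 and 8.60 in the R-SDS arrays and 8.72 and 8.32 in the Control arrays. Control 1 was the highest and Control 2 the lowest, with a log2 difference of 0.11 ± 0.17 (SE, n = 2 each). Prom1, a membrane protein of stem cells that choroid plexus and ependymal cells also carry, had a log2 difference of 0.11. The Notch targets Hes1 and Hes5 and the hedgehog target Gli1 had log2 differences of 0.08, 0.02 and 0.06. Hopx, which marks quiescent stem cells, had a log2 difference of 0.0098, and its sign turned under quantile normalization (-0.0037).

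In a wider list of stem cell and Notch genes, 35 of 36 were measured and the median log2 difference was 0.04. Of the 35, 21 had a higher mean in R-SDS (60%, against 53.5% of all genes). The groups did not overlap for 2 on each side (5.71%, against 9.52% of all genes higher and 8.81% lower). These were the receptor Notch2 (0.19) and its ligand Jag1 (0.15), and Lfng (-0.13), which tunes Notch receptors, and the Notch target Heyl (-0.11). Astrocyte markers, which share much with radial stem cells, had a median log2 difference of 0.07 over 10 genes, of which 8 were higher in R-SDS (80%). The part of astrocytes in the stem cell values was not tested.

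Both intermediate progenitor genes overlapped between groups. Eomes, which marks these cells, had log2 values of 5.34 and 5.89 in the R-SDS arrays and 5.70 and 5.80 in the Control arrays. R-SDS 1 was the lowest and R-SDS 2 the highest of all, and the log2 difference of -0.14 ± 0.20 (SE, n = 2 each) was -0.36 within number 1 and 0.09 within number 2. Neurog2, a proneural factor that acts before Eomes, had a log2 difference of 0.06.

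The immature neuron members were mixed. Of the 13, 8 had a higher and 5 a lower mean in R-SDS, with a median log2 difference of 0.05 and a range of -0.43 to 0.27. The groups did not overlap on the higher side for 3 (23.1%) and on the lower side for 1 (7.69%), where 9.52% and 8.81% of all genes did not. Within both numbers 6 were higher and 2 lower, against 27.8% and 22.3% of all genes. Means lay above the median of all genes for 11 of the 13. Among them Ncam1 was at percentile 99.2 of all genes, Nnat at 98.6 and Stmn1 at 96.6. The part of mature neurons in the values of this class was not tested.

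Calb2 encodes calretinin, a calcium-binding protein of newly postmitotic granule neurons, which in the mouse is also abundant in mossy cells and some interneurons. Its log2 value was 7.35 and 7.87 in the R-SDS arrays and 8.04 and 8.04 in the Control arrays. R-SDS 1 was far below the rest and R-SDS 2 lay nearer to the Control arrays, without overlap. The log2 difference was -0.43 ± 0.19 (SE, n = 2 each; 95% interval -0.90 to 0.05), a fold of 0.743, with an adjusted p of 1 by limma, and it was -0.17 without R-SDS 1 and -0.69 without R-SDS 2. Calretinin is also strong in the thalamus, which adjoins the hippocampus. The other 9 thalamus and habenula markers had a median log2 difference of -0.06 with 2 higher in R-SDS, and their mean log2 values were 7.17 and 7.10 in the R-SDS arrays and 7.17 and 7.19 in the Control arrays. Within number 1 their median was -0.07, and single markers ran both ways there, with Zic1 at 0.55 and Ramp3 at -0.30. The part of thalamic tissue in the Calb2 values was not tested.

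Dcx encodes doublecortin, the microtubule protein used to count new neurons. Its log2 value was 6.96 and 7.36 in the R-SDS arrays and 7.09 and 7.40 in the Control arrays. Both number 2 arrays were high, the groups overlapped, and the log2 difference was -0.08 ± 0.19 (SE, n = 2 each; 95% interval -0.56 to 0.39). Neurod1, a transcription factor needed for new granule neurons to survive, had log2 values of 7.52 and 7.54 in the R-SDS arrays and 7.46 and 7.06 in the Control arrays. Control 2 was low while Control 1 nearly met the R-SDS arrays, and the log2 difference of 0.27 ± 0.17 (SE, n = 2 each) became 0.07 without Control 2 and 0.47 without Control 1. Thus 2 genes of the same stage, Dcx and Neurod1, had mean differences of opposite sign, and neither passed the test.

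Draxin, a secreted guidance protein for growing axons, had log2 values of 5.83 and 6.03 in the R-SDS arrays and 5.72 and 5.74 in the Control arrays. Both R-SDS arrays lay above Control, and the log2 difference was 0.20 ± 0.14 (SE, n = 2 each). Nnat, an imprinted gene for a small membrane protein of developing brain, had log2 values of 10.89 and 10.88 in the R-SDS arrays and 10.68 and 10.82 in the Control arrays, with a log2 difference of 0.14. The groups did not overlap for Nnat, though Control 2 was close to the R-SDS arrays.

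The remaining immature neuron members overlapped between groups. Sox4 and Sox11, paired transcription factors of early neurons, had log2 differences of 0.05 and -0.05. Stmn1, a microtubule destabiliser, had a log2 difference of -0.13, with -0.12 for its second row, and RefSeq lists related copies of Stmn1 that may share its signal. Dpysl3 and Dpysl5, which act on the growing cytoskeleton, and the adhesion molecule Ncam1 had log2 differences between 0.05 and 0.06. Tubb3, a neuronal tubulin, and Igfbpl1, a marker of early neuroblasts, had log2 differences of 0.0032 and -0.0041, and both signs turned under quantile normalization (-0.0088 for Tubb3 and 0.0053 for Igfbpl1).

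In a wider list of immature neuron genes, 38 of 40 were measured, of which 15 had a higher mean in R-SDS (39.5%, against 53.5% of all genes) and 23 a lower one, with a median log2 difference of -0.04. Most were bright, with means above the median of all genes for 35 of the 38. Without Control 1, 20 of the 38 were higher. The groups did not overlap on the lower side for 7 (18.4%, against 8.81% of all genes), led by the adhesion molecule Cntn2 (-0.18) and the guidance factor Sema3c (-0.18), and on the higher side for 1 (2.63%, against 9.52% of all genes), Neurod4 (0.16). Markers of subventricular zone neuroblasts, new neurons of another niche that share Dcx and Sox11, had a median log2 difference of -0.04 over 9 genes with 2 higher in R-SDS, and their part was not tested.

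Growth signals that act on the niche were measured for 25 of 27 listed genes. Of these, 19 had a higher mean in R-SDS (76%, against 53.5% of all genes) with a median log2 difference of 0.05. On either side 0 were without overlap, where 9.52% of all genes lay higher and 8.81% lower. The largest differences of this list, picked after their values were seen, were those of the growth factor Igf2 (0.68) and of Bmp6 (0.55), a ligand that holds stem cells in quiescence. For Igf2 the log2 difference was 1.27 within number 1 and 0.09 within number 2, and for Bmp6 it was 1.05 within number 1 and 0.06 within number 2. Markers of the choroid plexus, a tissue next to the hippocampus that makes Igf2, moved in the same array. Of 15 choroid plexus markers 14 were measured, each with a higher R-SDS mean, and their mean log2 values were 8.63 and 5.74 in the R-SDS arrays and 6.28 and 5.61 in the Control arrays. Other marker lists were also highest in R-SDS 1. For 8 meningeal fibroblast markers, Igf2 among them, the mean log2 values were 7.46 and 6.85 in R-SDS and 7.02 and 6.85 in Control. For 3 erythroid markers they were 7.05 and 6.24 in R-SDS and 6.21 and 6.30 in Control. The cycling members were also highest in R-SDS 1, with a median of 0.22 above the Control mean there and 0.06 in R-SDS 2. The parts of these tissues and cells in the R-SDS 1 values, the cycling members, Calb2, Eomes and Prom1 included, were not tested.

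**Figure D4:**
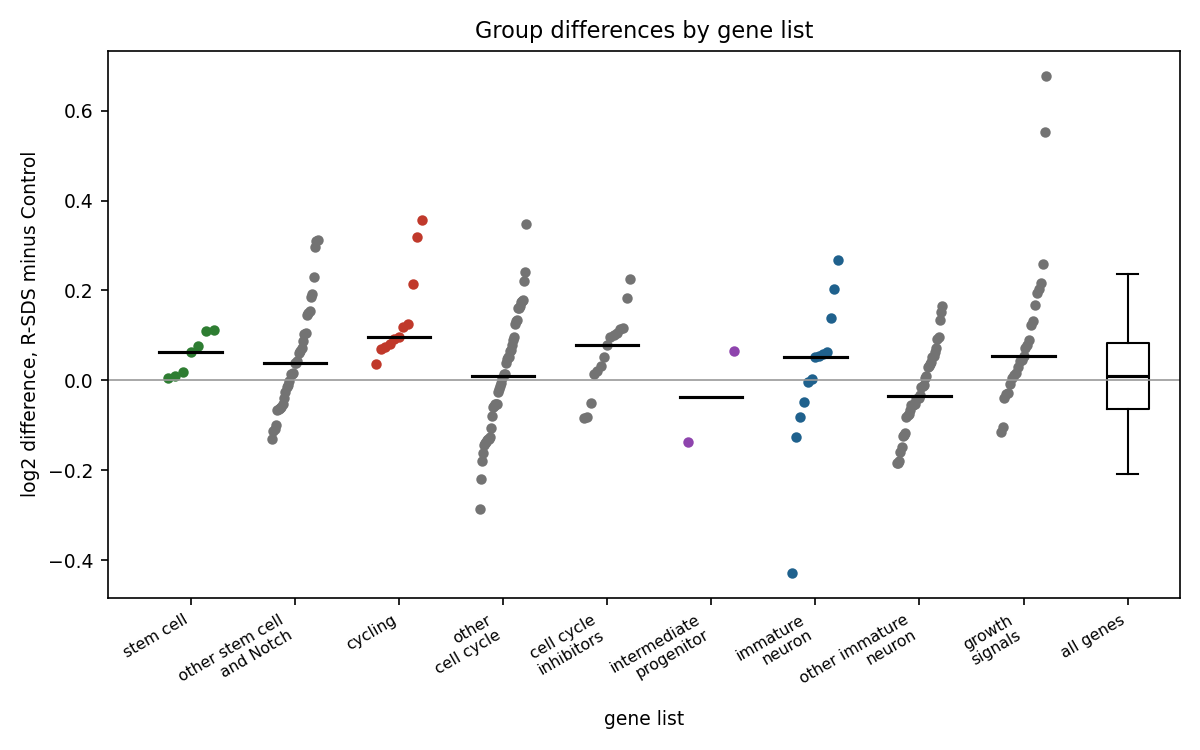
Log2 difference, R-SDS minus Control (y axis), for each gene of the member classes (coloured) and the wider lists (grey), with the median as a black bar; the box at the right gives all genes (median, quartiles, and 5th and 95th percentiles as whiskers). The cycling members all lie above 0 with a median of 0.10, whereas the 46 other cell cycle genes centre on 0.0088, and Calb2 is the lowest point of the immature neuron members.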

How the data were processed

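Total RNA of dissected hippocampus was hybridised to Affymetrix mouse gene arrays, with 2 R-SDS and 2 Control arrays. The deposited table holds log2 values, for which the submitters' processing notes name RMA and Affymetrix Expression Console. RMA corrects background, aligns array distributions and summarises probes, so a dim gene's difference is compressed. The values carry no depth or detection call, and the number of arrays limits precision. Of 35556 rows, 21789 had 1 gene symbol (19938 genes), 1621 had several and 12146 were not listed in the platform annotation. Sample titles gave the groups and numbers. The study's methods give 2 mice for R-SDS, and neither they nor the labels say so of Control, so p-values measure the spread between these arrays.

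The R-SDS against Control difference of every row with 1 symbol was fitted in limma 3.58.1 (lmFit, eBayes; R 4.3.3) without a filter or further covariates. Two-sided p-values were adjusted over those rows (Benjamini-Hochberg, threshold 0.05). Standard errors and 95% intervals are limma's moderated ones (2 residual and 4.07 prior degrees of freedom). Tables and plots used Python 3.11.15, pandas 2.3.3 and matplotlib 3.10.9, and the procedure was tested on simulated data. The genes named are all members, up to 2 genes per direction and wider list with the largest difference among those without overlap, and defining markers. The members, the lists and the naming rule were chosen with earlier results of these data known. Alternatives were the replicate block, quantile normalization, median scaling, a filter on dim genes (mean log2 of at least 6), limma with trend, Student's unpaired t-test (the methods' t-test), the mean of all rows of a gene and leaving out each array. Promoters were RefSeq's for GRCm38.p6, and the sources used here name no build for the array annotation.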

Additional observations from a re-analysis of the deposited data

How the results depend on the processing

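Under all alternatives run, 0 members passed the adjusted p. With the replicate block 0 members passed the adjusted p, and 2 (Aurkb and Calb2) had an unadjusted p under 0.05, where 4.75% of all genes did. The labels do not say what the numbers mark. Arrays of the same number deviated together over genes (r = 0.52). For 14287 of 19938 genes number 1 differed from number 2 in the same direction in both groups. Whether same-numbered arrays shared a handling step or a pairing cannot be told from 2 pairs, and the block changed no adjusted call. Under median scaling, which moved the median difference of all genes to 0.03, 0 members had an unadjusted p under 0.05. The filter on dim genes removes 13 members, Aurkb among them, so its calls say nothing of Aurkb. It leaves 20 members and no intermediate progenitor gene. On the higher side 3 of the 20 were without overlap, and no such share was taken over all genes left by the filter. Signs turned for Hopx (-0.0037) and Tubb3 (-0.0088) under quantile normalization, and for Igfbpl1 under quantile normalization (0.0053) and median scaling (0.0126).

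Leaving out 1 array at a time took 0 to 1 members past the study's thresholds on the higher side (Birc5 without Control 2) and 0 to 1 on the lower side (Calb2 without R-SDS 2). Members without overlap then numbered 13 to 20 higher and 3 to 6 lower, where a lone array makes overlap rarer by construction. The shares of all genes given above hold for 2 arrays a group and do not apply to any of these counts. No matching share was taken, so the counts are not read as a result about the members. Class medians ran from -0.049 to 0.11 for stem cell, 0.061 to 0.22 for cycling, -0.21 to 0.14 for intermediate progenitor and -0.019 to 0.11 for immature neuron members. List medians ran from -0.038 to 0.12 for stem cell and Notch, -0.072 to 0.090 for other cell cycle, 0.0083 to 0.11 for inhibitor, -0.077 to 0.0050 for other immature neuron and 0.022 to 0.10 for growth signal genes. Of the members, 22 changed sign without some array, with these lowest to highest log2 differences: Sox2 -0.091 to 0.31, Prom1 -0.049 to 0.27, Hes1 -0.013 to 0.16, Gli1 -0.032 to 0.16, Hes5 -0.067 to 0.10, Hopx -0.087 to 0.11, Nes -0.28 to 0.28, Top2a -0.10 to 0.29, Pcna -0.036 to 0.22, Mki67 -0.030 to 0.19, Ccnd1 -0.066 to 0.14, Neurog2 -0.025 to 0.16, Eomes -0.41 to 0.14, Dpysl3 -0.15 to 0.27, Dpysl5 -0.10 to 0.22, Sox4 -0.19 to 0.30, Ncam1 -0.019 to 0.12, Tubb3 -0.11 to 0.11, Igfbpl1 -0.14 to 0.13, Sox11 -0.11 to 0.013, Dcx -0.28 to 0.12 and Stmn1 -0.31 to 0.051. The other 11 kept their sign, Aurkb (0.35 to 0.36) and Mcm2 (0.20 to 0.23) within the narrowest ranges for differences above 0.2. The causes of these shifts were not tested.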

Other observations

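Markers of mature granule neurons, the cells that new neurons become, had a higher mean in R-SDS for 9 of 10 genes. The share was 90%, against 53.5% of all genes, the median log2 difference was 0.06, and 0 passed the adjusted p. C1ql2, a synaptic organiser of granule neurons, had log2 values of 8.47 and 8.09 in the R-SDS arrays and 8.02 and 7.76 in the Control arrays. Tdo2, an enzyme of tryptophan breakdown that marks granule neurons, had log2 values of 5.23 and 5.27 in the R-SDS arrays and 4.98 and 4.74 in the Control arrays. The groups did not overlap for either gene, and the log2 difference was 0.39 for both. No overlap on the higher side was seen for 20% of the list and 9.52% of all genes, and on the lower side for 0% and 8.81%. Prox1 and Calb1, the defining genes of the cell type, had log2 differences of 0.03 and 0.04. The list's median was 0.0055 within number 1 and 0.21 within number 2.

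Markers of oligodendrocyte precursors, the most widespread dividing cells of the adult brain, had a lower mean in R-SDS for 10 of 11 genes. The mean was higher in R-SDS for 9.09% of the list, against 53.5% of all genes, and the median log2 difference was -0.08. Neu4, a sialidase, had log2 values of 6.13 and 6.11 in the R-SDS arrays and 6.33 and 6.39 in the Control arrays, without overlap. Enpp6, which marks precursors as they differentiate, had a log2 difference of -0.15, also without overlap. No overlap on the lower side was seen for 18.2% of the list and 8.81% of all genes, and on the higher side for 0% and 9.52%. Of the 11 genes, 5 were lower and 0 higher within both numbers, against 22.3% and 27.8% of all genes. By limma 0 of the 11 passed the adjusted p.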
